A study of Mus musculus with 27 samples.

Results

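C57BL/6J mice that received RfxCas13d-N2V8 with crRNA-13 were compared with C57BL/6J mice that received the CRISPR effector with a non-targeted crRNA (NTG). The comparison holds 3 crRNA-13 libraries and 5 NTG libraries, chosen by their labels, of 27 libraries in the series. RfxCas13d is an RNA-guided RNA nuclease, and RfxCas13d-N2V8 is a variant of it with mutations in one of its nuclease domains that is meant to cut fewer RNAs other than the target. crRNA-13 is directed against the human C9ORF72 RNA, a gene whose repeat expansion is a common inherited cause of amyotrophic lateral sclerosis and frontotemporal dementia. C57BL/6J mice do not carry the human gene, so the comparison asks what crRNA-13 does to the transcriptome where its human target is absent. The mice were age-matched littermates of C9-BACexp mice, which carry the human gene with the expansion. They were injected in the motor cortex at 6 weeks of age with PHP.eB adeno-associated vectors. One vector carried the effector under the ubiquitous CAG promoter together with the crRNA behind a U6 promoter, and a second, given to all groups, carried CAG-driven EGFP-KASH, which places EGFP on the nuclear envelope. The labels name RfxCas13d-N2V8 for the crRNA-13 mice and RfxCas13d for the NTG mice, whereas the methods name RfxCas13d-N2V8 for both. A difference between effectors and a difference between crRNAs therefore cannot be told apart from the labels alone. A further 4 C57BL/6J mice received EGFP-KASH only. Of the C9-BACexp mice, 6 received crRNA-13, 6 received NTG and 3 received EGFP-KASH only.

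EGFP-positive nuclei were sorted 2 months after injection, and total RNA of the nuclei was sequenced, so the values describe nuclear RNA of transduced cells of any type. The labels call the cells neurons. Rbfox3, which encodes the neuronal nuclear protein NeuN, was at 833 to 1330 CPM (estimated counts per 1e+06 library counts) in the crRNA-13 mice and at 727 to 1610 CPM in the NTG mice. The microglial gene Aif1 was at 1.49 to 3.31 CPM in the crRNA-13 mice and at 0.667 to 2.66 CPM in the NTG mice. The summed level of the 31 oligodendrocyte markers was 1604 to 2817 CPM in the crRNA-13 mice and 701.2 to 3596 CPM in the NTG mice, so oligodendrocyte RNA was present in all 8 libraries. In bulk RNA, fewer cells of a type and less RNA per cell cannot be told apart. The 8 libraries held 21784030 to 36028217 estimated counts, and each pair of them had a Spearman correlation of 0.932 to 0.97. The labels name no litter, sex or batch, and the methods state that groups were balanced for sex and litter. Xist, the RNA of the inactive X chromosome, was over 100 CPM in 2 of 3 crRNA-13 mice and in 2 of 5 NTG mice.

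Single libraries stood apart before any test. crRNA-13 replicate 5 had the highest level of nearly every interferon gene described here, and NTG replicate 2 was the high NTG mouse. crRNA-13 replicate 5 also held 16.1 estimated counts of human C9ORF72 transcripts, against 0 in the other 11 C57BL/6J libraries and 1424 to 3792 in the C9-BACexp libraries. Of 44 genes named by rule that were called in the comparison below, 30 lost the call without crRNA-13 replicate 5 and 10 without NTG replicate 2, and 21 lost it without crRNA-13 replicate 1 and all 44 without NTG replicate 1.

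Interferons are secreted proteins that cells release when sensors detect foreign or misplaced nucleic acid. Binding to their receptors activates transcription factors of the STAT family, which enter the nucleus with interferon regulatory factors and switch on interferon-stimulated genes. The products of these genes bind viral RNA, block translation, attack membranes of intracellular pathogens, attach ubiquitin-like tags or ADP-ribose, and load peptides on major histocompatibility complex (MHC) class I molecules. Neurons and glia both mount this response.

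Of 21768 genes tested, 77 differed between the crRNA-13 and NTG mice by more than 0.32 on the log2 scale and with an adjusted p below 0.05 (0.354%), 67 higher (0.308%) and 10 lower (0.0459%) with crRNA-13. Adjusted p is from the quasi-likelihood test of edgeR with Benjamini-Hochberg adjustment over all tested genes, in a model with 4 factors of unwanted variation. Genes past both limits are called below, and only these are said to have risen or fallen. The called genes had adjusted p of 0.0211 to 0.05, and none was below 0.01. The median log2 fold change of all tested genes was 0.00. Levels are CPM scaled by TMM, and fold changes are log2 of crRNA-13 over NTG. In the edgeR model the calls needed the 4 factors: with none, 0 genes were called and the smallest adjusted p was 0.183, with 1047 genes at an unadjusted p under 0.05 against 2394 with the factors. Of the 77 genes, 11 had an unadjusted p of 0.05 or more without the factors. limma-trend with factors called 46 genes, of which 44 were among the 77, DESeq2 with factors 406 (76 among the 77), and DESeq2 without factors 58 (27 among the 77). Without NTG replicate 1 no gene was called, with 2335 genes at an unadjusted p under 0.05. Without crRNA-13 replicate 5, 202 genes were called, 30 of them among the 77.

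**Figure D1:**
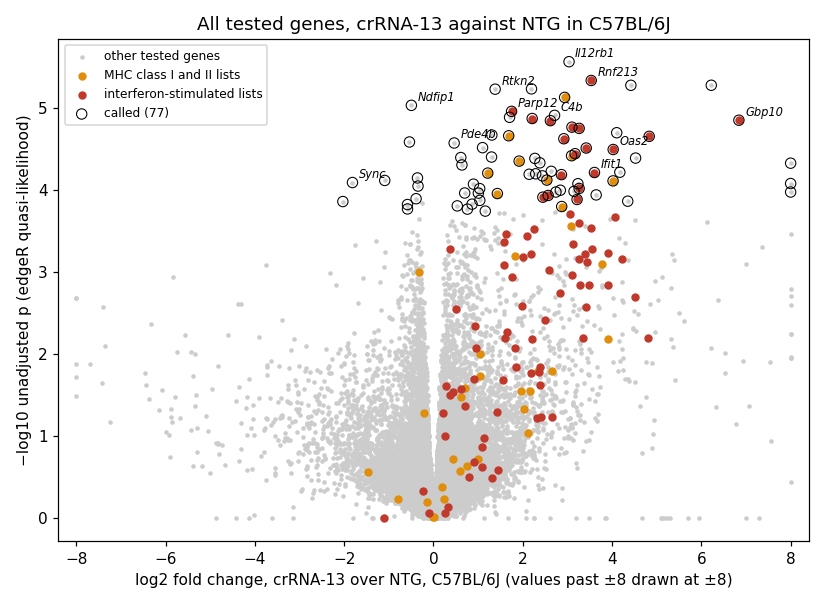
Each of the 21768 tested genes is a point, with the log2 fold change of crRNA-13 over NTG in C57BL/6J mice on the x axis and −log10 of the unadjusted p on the y axis. Red points are the 87 tested interferon-stimulated genes, orange points the MHC lists, and rings the 77 called genes, of which 67 lie to the right of 0.

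Interferon-stimulated genes made up 18 of the 67 genes that rose. Of 87 tested members of the lists of antiviral effectors, interferon-induced GTPases and interferon-induced ubiquitin, ISG15 and PARP genes, 18 rose, none fell and 84 had a positive log2 fold change, where 50.5% of all tested genes did. All 18 had an unadjusted p under 0.05 without the factors as well, in the same direction, although none was called there. The levels of the crRNA-13 mice overlapped those of the NTG mice for most of them: in 3 of the 18, and in 6 of the 87, all 3 crRNA-13 mice were above all 5 NTG mice, against 1.51% of all tested genes. The 18 were called on these same levels, so their share is no support for the calls. Without crRNA-13 replicate 5 the count of 18 was 2 (Rnf213 and Gbp10), without crRNA-13 replicate 2 it was 48, without NTG replicate 1 it was 0, and without both crRNA-13 replicate 5 and NTG replicate 2, chosen after the data were seen, it was 9.

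Sensors of nucleic acid are described first, and RNA levels at a single time give no order of events. Of 20 tested sensor genes 4 rose and none fell, with a list median of 0.73. Ifih1, which encodes the double-stranded RNA sensor MDA5, was at 10.7, 6.44 and 49.7 CPM in crRNA-13 replicates 1, 2 and 5, against 2.04, 8.58, 2.62, 2.95 and 2.78 CPM in NTG replicates 1 to 5. The crRNA-13 mice lay above every NTG mouse but replicate 2, which exceeded crRNA-13 replicate 2. The log2 fold change was 2.44 ± 0.49 (SE, adjusted p = 0.0329). Ddx58, which encodes the RNA sensor RIG-I, was at 7.6, 3.45 and 42.1 CPM against 2.08, 6.88, 1.72, 2.99 and 1.65 CPM, a log2 fold change of 2.29 ± 0.46 (adjusted p = 0.0325). Eif2ak2, the double-stranded RNA-activated kinase PKR that halts translation, rose by 2.38 ± 0.46 on the log2 scale (adjusted p = 0.0289) and Ddx60, an antiviral helicase, by 2.74 ± 0.57 (adjusted p = 0.0384). Without crRNA-13 replicate 5 these 4 had log2 fold changes of 0.95 (Ddx58) to 1.76 (Ddx60) and none was called.

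Of 6 tested interferon ligands and receptors none was called, with a median of 0.12. Over 20 tested STAT and IRF genes the median log2 fold change was 0.44. Stat2, which carries the type I signal into the nucleus, was at 76.6, 44.7 and 158 CPM in crRNA-13 replicates 1, 2 and 5, against 24.8, 52, 42.5, 38.7 and 33.6 CPM in NTG replicates 1 to 5. NTG replicate 2 lay between the crRNA-13 mice and the other 4 NTG mice lay below all 3. The log2 fold change was 1.30 ± 0.25 (adjusted p = 0.0277). Irf7, the factor that amplifies interferon production, and Irf9, the DNA-binding partner of STAT2, had log2 fold changes of 3.35 and 0.76 and were not called (adjusted p = 0.138 and 0.172). These 2 were named after their values were seen. Without crRNA-13 replicate 5 the log2 fold change of Stat2 was 0.69 and it was not called.

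Of 40 tested antiviral effectors 6 rose and none fell, with a median log2 fold change of 2.28. Ifit1, whose product binds viral RNA that lacks host cap methylation, was at 14, 3.83 and 99.3 CPM in the crRNA-13 mice, against 0.0785, 14.7, 0.861, 2.27 and 1.73 CPM in the NTG mice. NTG replicate 2 exceeded crRNA-13 replicates 1 and 2 here, and the log2 fold change was 3.61 ± 0.71 (adjusted p = 0.0325). Oas2, which makes the oligoadenylate that activates RNase L, was at 7.32, 1.63 and 29.7 CPM against 0, 5.89, 0.103, 0.543 and 0.413 CPM, a log2 fold change of 4.03 ± 0.76 (adjusted p = 0.0265). Its relative Oas1g rose by 4.83 ± 0.89 on the log2 scale (adjusted p = 0.0238) and Ifit3, which stabilises IFIT1 on RNA, by 2.62 ± 0.46 (adjusted p = 0.0219). None of the list was called without crRNA-13 replicate 5, where Ifit1 had a log2 fold change of 2.12 (adjusted p = 0.179). Rtp4 and Mx2 complete the 6, and Mx1, at 5.68, 5.32 and 65.5 CPM against at most 5.48 CPM, was not called (adjusted p = 0.0796). Isg15 itself had a log2 fold change of 1.31 at 0.0466 to 2.64 CPM and was not called. Genes of the Ifit, Oas, Gbp and H2 families resemble one another in sequence, and the authors' estimates divide shared reads among them, so the split between members is uncertain.

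The interferon-induced GTPases, which coat and disrupt the membranes around intracellular pathogens, had the highest list median, 3.16 over 18 tested genes, all 18 with a positive log2 fold change. Of these, 5 rose. Gbp10, a guanylate-binding protein, was at 4.35, 3.41 and 22.3 CPM in the crRNA-13 mice, against 0, 1.09, 0, 0.0679 and 0.0376 CPM in the NTG mice. All 3 crRNA-13 mice were above all 5 NTG mice, and the log2 fold change was 6.84 ± 1.21 (adjusted p = 0.0219). Its size depends on the prior count, since the NTG values are near 0. Gbp7 was at 15.1, 3.83 and 48.6 CPM against 0.393, 7.18, 0.723, 1.46 and 1.95 CPM, a log2 fold change of 3.26 ± 0.59 (adjusted p = 0.0238), and Gbp6 rose by 3.22 ± 0.68 (adjusted p = 0.0419). Irgm1, an immunity-related GTPase that regulates the others, was at 16.7, 4.62 and 37.3 CPM against 0.864, 6.09, 0.448, 1.9 and 2.4 CPM (log2 fold change 3.10 ± 0.56, adjusted p = 0.0238). Gbp5 also rose. Gvin3, which is annotated as a transcribed pseudogene and is in no list, was at 0.82, 1.91 and 5.31 CPM in the crRNA-13 mice, against 0 to 0.509 CPM in the NTG mice, with no overlap.

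All 29 tested genes of the interferon-induced ubiquitin, ISG15 and PARP list had a positive log2 fold change and 7 rose (median 1.76). Rnf213, which encodes a giant ubiquitin ligase with a role in antimicrobial defence, was at 158, 57.1 and 668 CPM in crRNA-13 replicates 1, 2 and 5, against 6.63, 76.9, 18.4, 21 and 12.4 CPM in NTG replicates 1 to 5. NTG replicate 2 alone lay above crRNA-13 replicate 2. The log2 fold change was 3.53 ± 0.56 (adjusted p = 0.0211), and it was called in the model without crRNA-13 replicate 5 too (2.23, adjusted p = 0.0407). Uba7, the activating enzyme that charges ISG15, was at 16.4, 3.83 and 44.3 CPM against 0.707, 7.39, 0.654, 1.66 and 0.263 CPM (log2 fold change 3.42 ± 0.64, adjusted p = 0.0265). Parp14 and Parp10, which add single ADP-ribose units, rose by 3.26 ± 0.68 and 3.17 ± 0.61 on the log2 scale (adjusted p = 0.0376 and 0.0277). Parp12 and Parp3 rose by 1.75 ± 0.30 and 2.21 ± 0.39 (adjusted p = 0.0219 for both), and Parp3 levels did not overlap, at 3.31 to 14.3 CPM in the crRNA-13 mice and 0.667 to 3.1 CPM in the NTG mice. Trim56, an antiviral ubiquitin ligase, also rose without overlap.

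**Figure D2:**
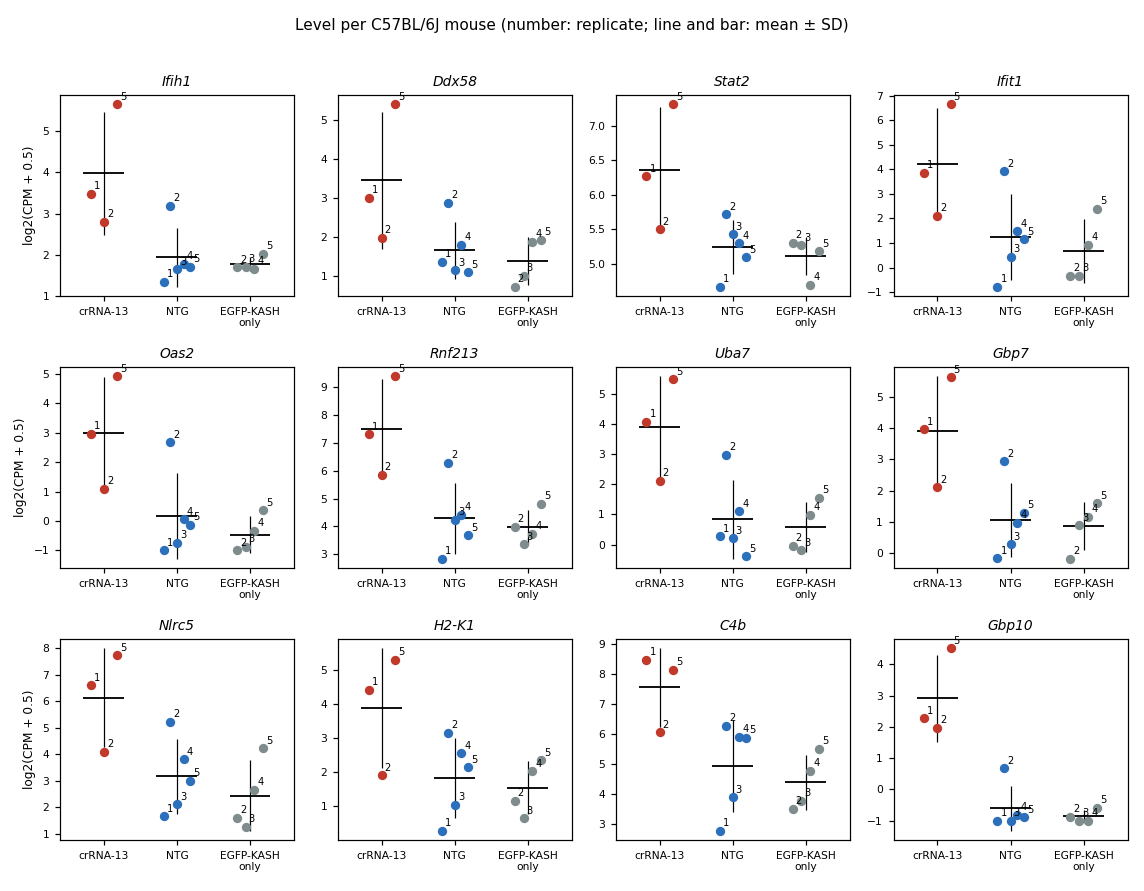
Levels of 12 genes as log2(CPM + 0.5), one panel a gene, with one point a C57BL/6J mouse numbered by replicate for crRNA-13 (red, n = 3), NTG (blue, n = 5) and EGFP-KASH only (grey, n = 4); lines and bars are the mean ± SD. crRNA-13 replicate 5 is the highest in all panels but C4b, NTG replicate 2 is the highest NTG mouse in each, and only Gbp10 has all crRNA-13 mice above all NTG mice.

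Promoters of the genes that rose together were searched for the sequences that interferon-activated factors are known to bind, and a match is a description, not a binding site. Windows of 300 bases around transcription starts were taken from RefSeq (build GRCm38.p6, whereas the counts were made on GRCm39) and 45 of the 67 genes that rose had one. The interferon-stimulated response element was searched as GAAANNGAAA, which on the other strand reads TTTCNNTTTC, and the gamma-activated site as TTCNNNGAA, which is its own reverse complement. The first was found in 17 of these 45 genes (37.8%), in 3.68% of the 16287 tested genes with a window and in 3.99% of all 27025 genes with one. The second was found in 7 of the 45 (15.6%) and in 8.91% of the tested genes. No test was made of these shares. Stretches of 30 bases upstream of the start are shown for 5 of the genes described above, to let the element be compared between effector, GTPase, sensor and signalling genes, with the match in capitals and in the direction of transcription.
Ifit1: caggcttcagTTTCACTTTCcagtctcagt
Ifit3: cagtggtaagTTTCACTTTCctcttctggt
Gbp7: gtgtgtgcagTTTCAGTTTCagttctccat
Ddx60: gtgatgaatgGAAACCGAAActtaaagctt
Stat2: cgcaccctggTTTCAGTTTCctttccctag
They lie on the plus strand of GRCm38.p6 at chr19:34640775-34640804 (Ifit1), chr19:34583363-34583392 (Ifit3), chr3:142530273-142530302 (Gbp7), chr8:61928024-61928053 (Ddx60) and chr10:128270266-128270295 (Stat2). The first base of the match is 104, 156, 53, 53 and 222 bases before the start, in the same order. In 4 of the 5 the match is read on the opposite strand, in Ddx60 on the strand of transcription.

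Genes of antigen presentation rose with the effectors. MHC class I molecules display peptides cut in the cytosol to T cells. Of 18 tested class I presentation genes 6 rose and none fell (median 1.23). Nlrc5, the transcriptional activator of the class I genes, was at 96.4, 16.7 and 212 CPM in the crRNA-13 mice, against 2.67, 36.8, 3.82, 13.6 and 7.55 CPM in the NTG mice, a log2 fold change of 3.09 ± 0.58 (adjusted p = 0.0277). H2-K1, a classical class I heavy chain, was at 21.1, 3.27 and 39.1 CPM against 0.707, 8.48, 1.55, 5.36 and 3.91 CPM, so crRNA-13 replicate 2 was within the NTG range. It rose by 2.54 ± 0.51 on the log2 scale (adjusted p = 0.0347), and H2-D1, the other classical chain, by 1.69 ± 0.31 (adjusted p = 0.0238). Psmb8, an immunoproteasome subunit, rose by 4.02 ± 0.82 (adjusted p = 0.0347) at levels of 0.606 to 4.8 CPM in the crRNA-13 mice and 0 to 0.613 CPM in the NTG mice. Tap1 and Tapbp, which carry peptides into the endoplasmic reticulum and load them, also rose. The common light chain B2m, named after its value was seen, had a log2 fold change of 1.03 and was not called (adjusted p = 0.25). No class I presentation gene was called without crRNA-13 replicate 5, without crRNA-13 replicate 1 or without NTG replicate 1. Leaving out crRNA-13 replicate 5, the log2 fold change was 2.32 for Nlrc5 (adjusted p = 0.0884), 1.86 for H2-K1 (0.103), 1.26 for H2-D1 (0.0735) and 3.41 for Psmb8 (0.0759). Without NTG replicate 2 that of H2-K1 was 3.03 (adjusted p = 0.0197), and 5 genes of the list were called.

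Of 11 tested nonclassical class I genes 3 rose (median 1.22). H2-T24 was at 6.15, 2.15 and 16.9 CPM in the crRNA-13 mice and at 0.338 to 1.97 CPM in the NTG mice, without overlap (log2 fold change 2.94 ± 0.50, adjusted p = 0.0219). H2-T22 did not overlap either, at 13.6, 11.3 and 32.1 CPM against 5.22 to 9.36 CPM, and rose by 1.22 ± 0.24 (adjusted p = 0.0325). H2-T23 rose by 1.92 ± 0.37 (adjusted p = 0.0289). Without crRNA-13 replicate 5 none of the 3 was called, with log2 fold changes of 2.10 for H2-T24 (adjusted p = 0.0679), 0.65 for H2-T22 (0.115) and 1.09 for H2-T23 (0.124). Of 7 tested class II genes, which present to helper T cells and mark microglia and infiltrating cells, none was called, with a median of 1.96. The member with the smallest p, H2-Ab1, was at 0.694, 0 and 3 CPM against 0, 0.511, 0, 0.0679 and 0 CPM (adjusted p = 0.211).

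C4b, the complement component that tags targets for C3 cleavage, was the only called gene of 19 tested complement and acute-phase genes. Its level was 351, 66.2 and 279 CPM in crRNA-13 replicates 1, 2 and 5, against 6.36, 76.9, 14.4, 59.8 and 58.4 CPM in NTG replicates 1 to 5. crRNA-13 replicate 1 was the highest here, not replicate 5. The log2 fold change was 2.71 ± 0.47 (adjusted p = 0.0219), and it was 2.57 without crRNA-13 replicate 5 (adjusted p = 0.0286). Neither C4b nor another gene of this list was called without crRNA-13 replicate 1 or without NTG replicate 1. In 5 of the 19 genes all crRNA-13 mice were above all NTG mice (26.3%, against 1.51% of all tested genes). Of 20 tested NF-kB, cytokine and chemokine genes 2 rose. Il12rb1, a receptor chain shared by interleukins, was at 12.1, 2.85 and 10.6 CPM against 0.157, 2.59, 0.517, 1.87 and 1.35 CPM, without overlap (log2 fold change 3.04 ± 0.48, adjusted p = 0.0211). Csf1, a growth factor of microglia, was at 39.8, 17.2 and 31 CPM against 12.5, 17, 14.1, 19.7 and 17 CPM (log2 fold change 0.86 ± 0.19, adjusted p = 0.0444). Il12rb1 was called without crRNA-13 replicate 5 too (2.88, adjusted p = 0.0203), and Csf1 was not (0.83, adjusted p = 0.0668). Of 26 cell death genes none was called. Mlkl, the executioner of necroptosis, had a log2 fold change of 2.72 with an adjusted p of 0.0508.

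**Figure D3:**
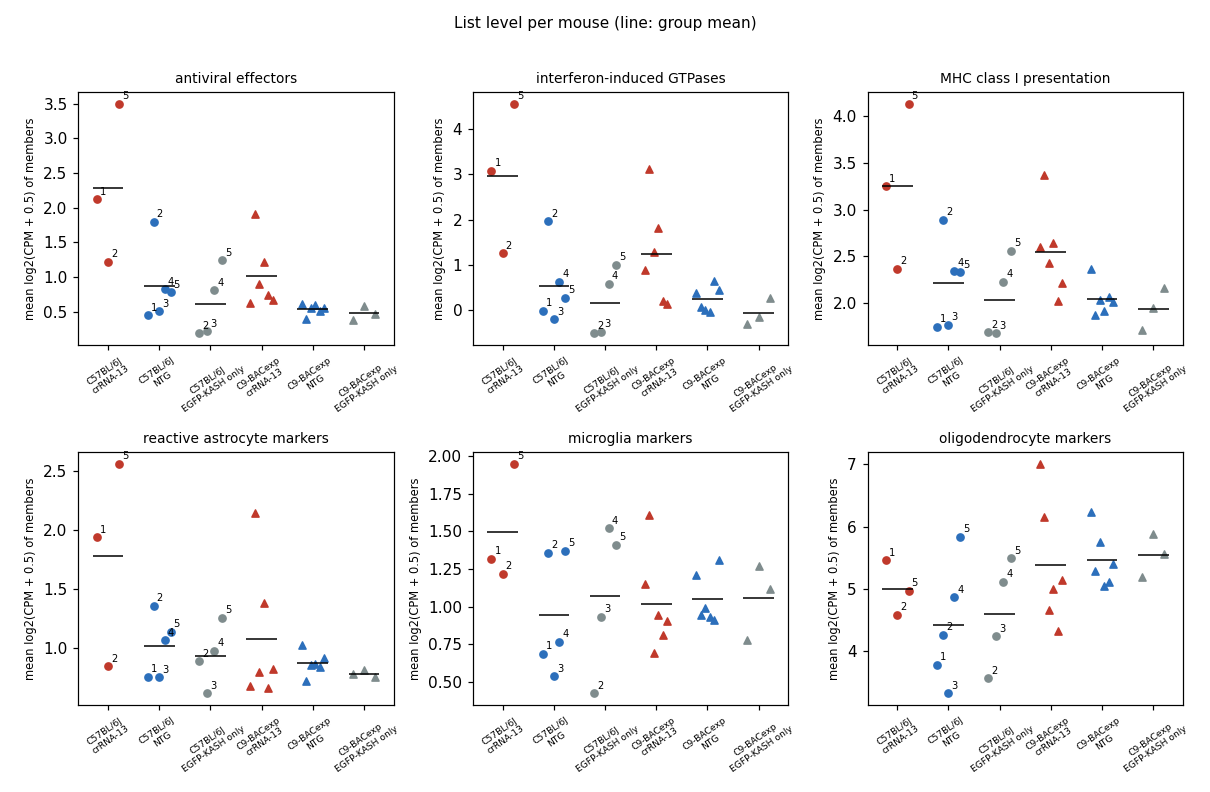
Mean log2(CPM + 0.5) over the tested members of 6 lists, one point a mouse, for crRNA-13, NTG and EGFP-KASH only in C57BL/6J (circles, numbered by replicate) and in C9-BACexp (triangles); lines are group means. For interferon-induced GTPases the C57BL/6J values are 1.26 to 4.56 with crRNA-13 and −0.20 to 1.97 with NTG, and for oligodendrocyte markers they are 4.59 to 5.46 and 3.33 to 5.84.

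Glial and neuronal marker lists were read beside these results. Of 24 tested reactive astrocyte markers 3 rose, H2-T23, H2-D1 and Psmb8, which are class I presentation genes that other lists hold too (median 0.98). Gfap, the intermediate filament of reactive astrocytes, was at 15.1, 3.36 and 21.1 CPM in the crRNA-13 mice, against 2.28, 6.54, 1.24, 2.82 and 3.19 CPM in the NTG mice, and was not called (log2 fold change 1.99, adjusted p = 0.0528). Of 22 homeostatic astrocyte markers none was called (median 0.11). Of 25 microglia markers none was called, but 24 had a positive log2 fold change (median 0.75), and their summed level was 95.9 to 166.6 CPM in the crRNA-13 mice and 48.5 to 172.9 CPM in the NTG mice. Irf8, which microglia need and interferon induces, had an adjusted p of 0.0566. The 8 tested of 30 markers of infiltrating immune cells summed to 4.01 to 10.6 CPM against 2.04 to 5.75 CPM, none was called, and the T cell gene Cd3e was at no more than 0.409 CPM in any of the 8 mice. Of 31 oligodendrocyte markers 30 had a positive log2 fold change (median 0.69) and 1 rose, Plxnb3, a semaphorin receptor, at 53.5, 28.7 and 46.7 CPM against 10.6, 18.7, 9.89, 35.6 and 48.5 CPM (log2 fold change 1.00 ± 0.21, adjusted p = 0.0384). Plxnb3 was not called without crRNA-13 replicate 5 (0.96, adjusted p = 0.0592). The count of called oligodendrocyte markers was 15 without NTG replicate 5, 8 without NTG replicate 4 and 9 without crRNA-13 replicate 2. The part of oligodendrocyte, microglial and astrocyte RNA in the interferon result was not tested.

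Excitatory neuron markers stayed near the median of all genes (15 tested, none called, median 0.01), with Snap25 at −0.24 and Nrgn at −0.24. All 16 upper-layer neuron markers had a negative log2 fold change (median −0.46), none called, and their summed level was 1748 to 1995 CPM in the crRNA-13 mice and 1854 to 3039 CPM in the NTG mice. The C57BL/6J mice with EGFP-KASH only summed to 1667 to 2129 CPM, a range that holds all the crRNA-13 mice. Over EGFP-KASH only the list median was −0.227 with crRNA-13 and 0.235 with NTG. Among 21 deep-layer markers 1 rose, Hs3st4, a heparan sulfate sulfotransferase of corticothalamic neurons, at 1990, 2710 and 1490 CPM against 1520, 742, 1520, 1250 and 1030 CPM (log2 fold change 0.76 ± 0.17, adjusted p = 0.0479). The ranges overlapped, and crRNA-13 replicate 5 was the lowest of its group. Without NTG replicate 2, the lowest NTG mouse, Hs3st4 was not called (0.59, adjusted p = 0.178). Inhibitory neuron markers had a median of −0.18 and striatal markers one of 0.14, with none called in either.

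Rises outside the lists included genes of other kinds. Rad51b, a recombination factor for DNA repair, was at 7.79, 82.8 and 18.3 CPM in the crRNA-13 mice and at 1.24 to 4.02 CPM in the NTG mice, without overlap (log2 fold change 4.35 ± 0.92, adjusted p = 0.0425). The EGFP-KASH only mice ranged over 0.91 to 67.4 CPM, so a single high mouse was seen there as well. Cldn34c2, a claudin gene, was at 7.41, 13.9 and 0.381 CPM against 0, 0.0681, 0.0344, 0 and 0 CPM, again highest in crRNA-13 replicate 2. The log2 fold change of Cldn34c2 was 5.36 to 9.77 over the alternative settings and tools, a size that depends on NTG values near 0. Of the 77 called genes 38 are in a list and 39 in none, and 10 have predicted-gene symbols. The called Gm14296 was at 0, 0 and 85.7 CPM in the crRNA-13 mice and at 0 in all 5 NTG mice, so its call rests on crRNA-13 replicate 5 alone. The called 9330159H11Rik, named after its values were seen, was at 0, 10.1 and 0 CPM against 0, 0, 0, 0 and 15.8 CPM, so 1 mouse of each group carried all of its counts, and without the factors it had an unadjusted p of 0.974. Pde4b, a phosphodiesterase that degrades cyclic AMP, and Nfia, a factor of glial development, named after their values were seen, rose by 0.46 ± 0.09 and 0.53 ± 0.12 on the log2 scale (adjusted p = 0.025 and 0.0454).

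The count of genes that fell varied with the libraries and the tool: 10 in the edgeR model, 0 to 116 with one of the 8 libraries left out, and 100 with DESeq2 with factors. Of the 10 genes that fell, 4 had all 3 crRNA-13 mice below all 5 NTG mice, against 1.27% of all tested genes. The 10 were called on these same levels, so a share above that of all genes is no support for the falls. Sync, which encodes the intermediate filament protein syncoilin, was at 0.6, 1.03 and 0.518 CPM in the crRNA-13 mice and at 3.02, 2.42, 2.79, 1.87 and 1.95 CPM in the NTG mice. Its log2 fold change was −1.81 ± 0.37 (adjusted p = 0.0351), and without crRNA-13 replicate 5 it was −1.60 and not called (adjusted p = 0.0884). The long noncoding RNA 4930500G05Rik, outside the rule for named genes and named after its values were seen, had the largest fall, −2.03 ± 0.44 (adjusted p = 0.0425), at 1.14, 0.466 and 0.872 CPM against 2.28, 5.24, 1.52, 4.14 and 4.4 CPM, also without overlap. Pigx, which acts in the first mannose transfer to glycosylphosphatidylinositol anchors, was at 4.64, 2.85 and 6.08 CPM against 20.7, 5.96, 5.44, 8.96 and 12.4 CPM (−1.09 ± 0.22, adjusted p = 0.0347). NTG replicate 1 was the highest for Pigx, and without that mouse the log2 fold change was −0.80 (adjusted p = 0.287). The other falls had log2 fold changes of −0.58 to −0.35. They were Nrsn1, a neuronal membrane protein, Gpc6, a glypican that promotes synapse formation, Slc44a5, a choline transporter-like protein, Ndfip1, an adaptor of NEDD4 ubiquitin ligases, Oaz2, an inhibitor of polyamine synthesis, Ppp3cb, a catalytic subunit of calcineurin, and Atp11b, a phospholipid flippase. Ndfip1, at 54.6, 61.9 and 89.2 CPM against 105, 99.6, 55.7, 89.9 and 148 CPM, had the smallest adjusted p of them (0.0219), and its groups overlapped. No list held a gene that fell.

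**Figure D4:**
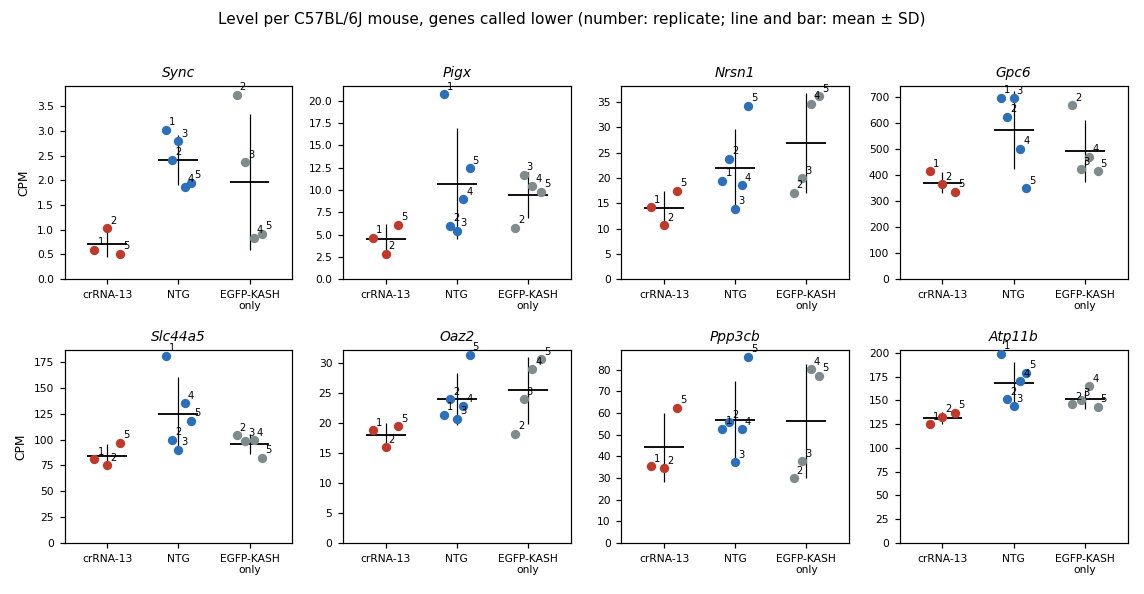
CPM of 8 of the genes that fell, on linear axes from 0, with one point a C57BL/6J mouse numbered by replicate for crRNA-13, NTG and EGFP-KASH only; lines and bars are the mean ± SD. Sync, Oaz2 and Atp11b have all 3 crRNA-13 mice below all 5 NTG mice, and the other 5 panels overlap.

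Lists of stress and RNA biology showed no called gene. The median log2 fold change was 0.04 over 25 genes of the integrated and unfolded protein stress response, 0.00 over 18 heat shock genes, 0.01 over 25 p53 and DNA damage genes, −0.09 over 77 cytosolic ribosomal protein genes, −0.02 over 50 splicing factors, −0.08 over 32 ALS and FTD genes and −0.04 over 52 synaptic and ion channel genes. Cdkn1a, the p53 target that arrests the cell cycle, was at 5.17, 4.2 and 3.57 CPM in the crRNA-13 mice and at 1.18 to 3.58 CPM in the NTG mice and was not called (adjusted p = 0.221). Immediate early genes had a median of 0.21 over 23 genes, and oligodendrocyte precursor, endothelial and mural and fibroblast markers had medians of 0.25, −0.06 and −0.04. The LINC complex, which tethers the nuclear envelope and to which KASH proteins bind, had a median of 0.14 over 11 genes. Its Syne2 and Syne3 had adjusted p of 0.0626 and 0.0632.

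The vector and the target were read directly. EGFP-KASH RNA was at 54.6, 22.6 and 45.5 CPM in the crRNA-13 mice, against 15.2, 29.7, 65.1, 40.6 and 20.4 CPM in the NTG mice. The ranges overlapped, and the mean log2(CPM + 0.5) differed by 0.35 (two-sided exact permutation test of 3 against 5 mice, p = 0.536, adjusted over 2 tests 0.536, smallest p possible 0.0357). Mouse C9orf72, the counterpart of the human target, was at 15.3, 23.9 and 21.9 CPM against 24.6, 22.1, 15.6, 21.9 and 31.5 CPM, a difference of −0.17 (exact permutation p = 0.5, adjusted 0.536). Smcr8 and Wdr41, its partners in a complex that regulates autophagy and membrane traffic, had log2 fold changes of 0.09 and 0.01 in the edgeR model and were not called. Of the human transcripts, V2 was listed at 11.8 and V1 at 4.25 estimated counts in crRNA-13 replicate 5, and V3 at 0. All 3 were listed at 0 in the other 7 libraries.

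The same contrast in C9-BACexp mice, which carry the target, was set beside these values with 6 crRNA-13 and 6 NTG mice. There 1 gene was called (0.00459%), Gm14296, which was lower with crRNA-13, against 2236 genes at an unadjusted p under 0.05, while DESeq2 called 154 with factors and 26 without and limma-trend called 0 both ways. Of the 67 genes that rose in C57BL/6J mice 56 had a positive log2 fold change in C9-BACexp mice (83.6%, against 44.9% of all tested genes). The falls did not recur in this way: of the 10 genes that fell in C57BL/6J mice, 4 had a negative log2 fold change in C9-BACexp mice. Rnf213 was at 13.5 to 192 CPM (median 35.8) in the C9-BACexp crRNA-13 mice and at 12.5 to 23.3 CPM (median 14.3) in the C9-BACexp NTG mice, a log2 fold change of 1.36 ± 0.45 that was not called (adjusted p = 0.308). Ifit1 had log2 fold changes of 3.61 in C57BL/6J and 2.39 in C9-BACexp mice, and C4b 2.71 and 1.33. The list medians in C57BL/6J and C9-BACexp mice were 2.28 and 0.60 for antiviral effectors, 3.16 and 1.80 for GTPases, 1.76 and 0.65 for the ubiquitin, ISG15 and PARP list, and 1.23 and 0.45 for class I presentation. Other lists had medians of opposite sign in the genotypes. Among them were microglia (0.75 and −0.12), oligodendrocyte (0.69 and −0.09), infiltrating immune (0.97 and −0.525) and upper-layer neuron markers (−0.46 and 0.01), and complement and acute-phase genes (0.595 and −0.02). The difference of the differences was tested as an interaction: 1 gene was called (0.00459%), again Gm14296, with 2272 genes at an unadjusted p under 0.05, and DESeq2 with factors called 217. None of the 18 interferon-stimulated genes passed it, with adjusted p of 0.276 for Rnf213 and 0.72 for Ifit1, so their larger values in C57BL/6J mice were not distinguished from those in C9-BACexp mice.

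**Figure D5:**
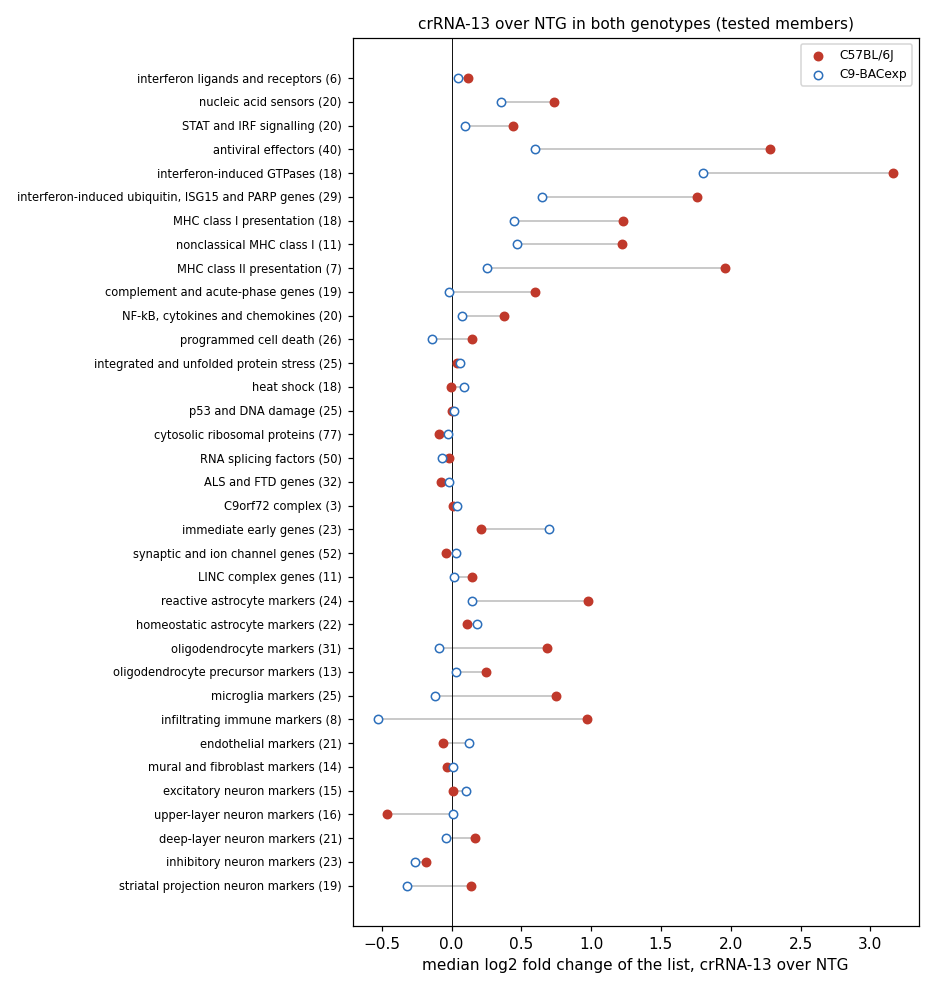
Median log2 fold change of crRNA-13 over NTG for 35 gene lists, with the number of tested members in brackets, in C57BL/6J mice (filled red) and C9-BACexp mice (open blue). The interferon, MHC, reactive astrocyte and microglia lists lie to the right of 0 in C57BL/6J mice, up to 3.16 for GTPases, and the stress, ribosomal and splicing lists lie near 0. In C9-BACexp mice the microglia list lies to the left of 0, at −0.12.

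The C57BL/6J mice with EGFP-KASH only served as a further reference for both groups. Against them 90 genes were called with crRNA-13 (0.413%), 74 higher and 16 lower, and 0 with NTG (0%), where 1696 genes had an unadjusted p under 0.05 and DESeq2 called 56 with factors and 21 without. These comparisons share the crRNA-13, NTG or EGFP-KASH mice with one another and are not independent. Of the 87 interferon-stimulated genes 35 were higher with crRNA-13 than with EGFP-KASH only. The interferon lists also had positive medians with NTG over EGFP-KASH only. These were 0.86 for GTPases, 0.66 for antiviral effectors and 0.40 for the ubiquitin, ISG15 and PARP list, against 0.01 for all tested genes. With crRNA-13 over EGFP-KASH only the medians of the same lists were 4.21, 3.10 and 2.15. Rnf213 was at 9.74 to 27.6 CPM and Ifit1 at 0.288 to 4.77 CPM in the 4 EGFP-KASH only mice, which for Rnf213 is below all 3 crRNA-13 mice. Among the 10 genes that fell against NTG, Nrsn1, at 17 to 36.1 CPM, and Ndfip1, at 58.1 to 148 CPM in the EGFP-KASH only mice, were also lower with crRNA-13 than with EGFP-KASH only (log2 fold changes −0.87 and −0.59, adjusted p = 0.00666 for both), as were Oaz2 (−0.46, adjusted p = 0.0145) and Pigx (−1.07, adjusted p = 0.0365). The other 6 were not called against EGFP-KASH only (adjusted p = 0.138 to 0.887), among them Sync, at 0.839 to 3.74 CPM there (adjusted p = 0.182), and 4930500G05Rik, at 0.678 to 1.39 CPM (log2 fold change −0.27).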

How the data were processed

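The authors deposited gene-level expected counts of 27 libraries, made with Salmon 1.10.0 and tximport in R 4.3.1 (tool names and versions from the submitters' processing notes, tximport from the methods) on GRCm39 transcripts, spliced and unspliced, together with EGFP-KASH and 3 transcripts of human C9ORF72. Libraries were single-end and rRNA-depleted, with reads on the sense strand. These estimates of reads shared between similar genes carry an assignment error that later tests do not include. Values were rounded to whole counts and TMM-scaled, and filterByExpr (at least 10 counts, 15 in total) kept 21768 of 39338 rows. One robust quasi-likelihood model of edgeR 4.0.16 (R 4.3.3) held 6 groups and 4 unwanted-variation factors taken from residuals (RUVr, own code); the study used limma-trend with 4 RUVSeq factors, whose kind is not given in the sources used here. Each comparison was adjusted by Benjamini-Hochberg over all tested genes. A gene was called past 0.32 on the log2 scale with an adjusted p below 0.05. The text of the study gives a limit of 0.01, with p adjusted globally over its pairwise comparisons. The alternative of 0.01 here kept the adjustment within the comparison, so it is not the same limit. limma 3.58.1 and DESeq2 1.42.0 were alternatives, and the code was tested on simulated data. The simulated counts held no unwanted variation and no outlying mouse, so that test does not show how the 4 factors act on these data. Exact permutation tests used scipy 1.17.1.

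Genes were named by rule: the 15 largest rises and falls of the calls, leaving out predicted-gene symbols and genes averaging below 1 CPM over the 8 libraries, up to 4 called members of each of 35 lists (smallest p first; 2 members where none was called), and the vector, target and C9orf72 complex genes. Members and lists were chosen with earlier results of these data known. Alternatives covered factors, filter, normalization, test, call limits, a replicate block and each of the 8 compared libraries left out in turn; leaving out 2 libraries together, and all alternatives of the C9-BACexp and EGFP-KASH only comparisons, were chosen after the data were seen. p-values of the main edgeR model measure the spread between these libraries that is left after 4 factors taken from the same libraries. They make no allowance for the estimation of those factors. Those of the permutation tests measure the spread between the 8 libraries without factors. Chromosome positions are given only for promoter stretches. One gene that the rule names is not reported here.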

Additional observations from a re-analysis of the deposited data

Results flagged for a closer look

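In 95 named genes and 35 lists, the 5 NTG mice were searched for a mouse far from the others by Dixon's test at 95%. Chance passes this limit in about 1 in 20 groups of normally distributed values, but genes were searched as CPM without logs. Genes that vary together are also not independent, so the number that passed cannot be set against that share. The limit was passed in 14 genes and 4 lists. NTG replicate 2 was the mouse apart in 11 genes, high in each, and in 3 lists. The genes were Ddx58 (6.88 CPM in NTG replicate 2), Eif2ak2 (16.4), Gbp10 (1.09), Gbp7 (7.18), H2-Ab1 (0.511), Ifih1 (8.58), Ifit1 (14.7), Oas1g (2.76), Oas2 (5.89), Rnf213 (76.9) and Uba7 (7.39). The lists were antiviral effectors (mean log2(CPM + 0.5) of 1.8), the interferon-induced ubiquitin, ISG15 and PARP genes (2.79) and, in the other direction, deep-layer neuron markers, where NTG replicate 2 was the lowest at 4.98. H2-T22 was apart in NTG replicate 1 at 5.22 CPM, Nkx2-2, a factor of oligodendrocyte precursors, in NTG replicate 5 at 7.78 CPM, Ccr7, a lymphocyte chemokine receptor, in NTG replicate 3 at 0.379 CPM, and splicing factors in NTG replicate 5 at a mean log2(CPM + 0.5) of 6.83. Without NTG replicate 2 the log2 fold change of Rnf213 was 4.29, against 3.53 with it.

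Human C9ORF72 RNA appeared in a mouse without the human gene: crRNA-13 replicate 5 held 11.8 estimated counts of transcript V2 and 4.25 of V1, 1.13% of the lowest C9-BACexp library, where the other C57BL/6J libraries held 0. The same library had the highest interferon levels. What the human counts stand for was not tested.

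Gm14296, a predicted gene, had a crRNA-13 difference that differed between the genotypes (interaction adjusted p = 0.01887). In C57BL/6J mice it was at 85.7 CPM in crRNA-13 replicate 5 and at 0 in the other 7 libraries. In C9-BACexp mice it was at 0 in all 6 crRNA-13 mice and at 0 to 54.1 CPM in the NTG mice (median 0, mean 17.9), and was called lower there (adjusted p = 0.0169).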

How the results depend on the processing

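No named gene that was called changed direction under any alternative, but the calls did change. The 44 named genes that were called all lost the call with no factors, 1 or 2 residual factors, 4 RUVs factors or limma-trend without factors, and 44 kept it with DESeq2 with factors. In the order called, higher, lower and interferon-stimulated, the main counts were 77, 67, 10 and 18. The counts were 0 for each of the 4 with no factors, with 1 or 2 residual factors, with 4 RUVs factors, with only the 8 or only the 12 C57BL/6J libraries and no factors, with limma-trend without factors, and at an adjusted p under 0.01. With no filter they were 37, 35, 2 and 11, with limma-trend with factors 46, 35, 11 and 13, with DESeq2 with factors 406, 306, 100 and 45, and with DESeq2 without factors 58, 47, 11 and 11. Adjusting over all pairwise comparisons gave 249, 203, 46 and 40. Leaving out both crRNA-13 replicate 5 and NTG replicate 2, chosen after the data were seen, gave 94, 66, 28 and 9. The replicate block gave 18, 15, 3 and 5, and the replicate block with no factors 1, 1, 0 and 0. The numbers were not taken as pairs, since the deviations of same-numbered mice (1, 2 and 5) correlated at −0.0022, −0.13 and 0.087. RLE normalization and a fold limit of 1.2 left the 4 counts as they were. Leaving out one of the 8 libraries at a time gave 0 to 291 called, 0 to 175 higher, 0 to 116 lower and 0 to 48 interferon-stimulated genes: by library, called and lower counts were 0 and 0 without NTG replicate 1, 291 and 116 without NTG replicate 3, 127 and 18 without NTG replicate 4, 173 and 20 without NTG replicate 5, 168 and 4 without crRNA-13 replicate 2, 202 and 58 without crRNA-13 replicate 5, while lower counts were 4 without NTG replicate 2 and 0 without crRNA-13 replicate 1.

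The interaction count of 1 was 0 with no factors, 1 or 2 residual factors, limma-trend with or without factors, the replicate block with or without factors and an adjusted p under 0.01. It was 2 with no filter, 217 and 21 with DESeq2 with and without factors, 4 without both high mice and 1 to 29 without one of the 8 libraries. The same alternatives, chosen after the data were seen for the other comparisons, moved the C9-BACexp count of 1 to 0 with no factors, 1 or 2 residual factors, limma-trend with or without factors, the replicate block with or without factors and an adjusted p under 0.01, to 154 and 26 with DESeq2 with and without factors and to 80 with adjustment over all pairwise comparisons; it was 1 without any one of the 8 C57BL/6J crRNA-13 and NTG libraries. No C9-BACexp or EGFP-KASH only library was left out singly, so no count here shows what one of those mice decides. The count of 90 against EGFP-KASH only became 0 with no factors, 1 or 2 residual factors, limma-trend without factors, the 12 libraries and the replicate block without factors, 21 with 4 RUVs factors or at 0.01, 19 with the replicate block, 368 with DESeq2 with factors, and 66 to 160 without one of the 8 libraries. The NTG count of 0 became 56 and 21 with DESeq2 with and without factors and 0 to 8 without one of the 8 libraries. Pseudocounts of 0.1 and 1 moved neither permutation result past 0.05. The cause of these changes was not tested. Counts near 0 CPM, as for Gbp10 or Psmb8 in NTG mice, limit the precision of their folds.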
